A study of Mus musculus with 36 samples.

Results

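Small leucine-rich proteoglycans (SLRPs) are secreted proteins built from leucine-rich repeats that sit on collagen fibrils in the matrix between cells. The 5 genes described here are Dcn (decorin), Bgn (biglycan), Lum (lumican), Fmod (fibromodulin) and Ogn (osteoglycin). They were taken as all probe sets whose annotation gives one of these symbols, which makes 5 of the 8251 genes with a single symbol on the array. The 5 genes are read by 8 probe sets: 1 each for Lum and Dcn and a pair each for Bgn, Fmod and Ogn. A filter on dim signals kept 7 of the 8, and the other, Fmod 161373_r_at, read 23.2 to 273.3 on all arrays and was not tested.

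RNA of mouse diaphragm, the main breathing muscle, was measured on 36 one-colour Affymetrix arrays. The groups were mdx mice and control mice of 7, 14, 23, 28, 56 and 112 days, with 3 arrays for each genotype and age. The labels name the genotype, the age and the tissue, and the series title calls the controls wild type. Strain, sex, pooling and other alleles are not given in the sources used here. Animals of the mdx line carry a mutation of Dmd that stops full-length dystrophin from being made throughout the body, while shorter Dmd products can still be made. The labels number the replicates without stating that each is another animal. The p-values therefore cover array-to-array spread, which may be technical. Since the whole muscle was used, fewer cells of a type and less RNA per cell cannot be told apart.

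Decorin and biglycan belong to class I of the family and carry chains of chondroitin or dermatan sulfate. Lumican and fibromodulin belong to class II, can carry keratan sulfate, and bind collagen to set the width of growing fibrils. Osteoglycin, also called mimecan, belongs to class III. Decorin and biglycan also bind transforming growth factor beta, decorin binds myostatin, and biglycan binds proteins of the dystrophin complex at the muscle fibre surface. Connective tissue cells make much of the matrix of muscle, and the mdx diaphragm is known for gathering matrix with age.

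Promoters are shown for Bgn, Fmod and Ogn, the members with an entry in the RefSeq promoter table for GRCm38.p6. Each window holds the 250 bases before and the 50 bases after the annotated start, written 5′ to 3′ on the gene's strand, which is the plus strand for all 3. Capitals mark matches to the motifs searched on both strands, which were the TATA box TATAAA, the GC box GGGCGG, the SMAD element CAGAC and the AP-1 site TGANTCA. The windows are chrX:73483351-73483650 for Bgn, chr1:134037004-134037303 for Fmod and chr13:49607765-49608064 for Ogn.
Bgn: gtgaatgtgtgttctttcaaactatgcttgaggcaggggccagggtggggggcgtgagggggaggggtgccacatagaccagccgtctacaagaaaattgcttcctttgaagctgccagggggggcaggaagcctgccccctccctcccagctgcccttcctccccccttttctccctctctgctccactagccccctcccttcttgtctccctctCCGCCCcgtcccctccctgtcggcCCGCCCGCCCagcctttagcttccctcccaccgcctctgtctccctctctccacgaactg
Fmod: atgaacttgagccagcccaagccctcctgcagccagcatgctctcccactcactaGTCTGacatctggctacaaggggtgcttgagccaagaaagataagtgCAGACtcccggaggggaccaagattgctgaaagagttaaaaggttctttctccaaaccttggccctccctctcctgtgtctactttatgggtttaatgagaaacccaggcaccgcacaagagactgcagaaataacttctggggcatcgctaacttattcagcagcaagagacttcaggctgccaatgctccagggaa
Ogn: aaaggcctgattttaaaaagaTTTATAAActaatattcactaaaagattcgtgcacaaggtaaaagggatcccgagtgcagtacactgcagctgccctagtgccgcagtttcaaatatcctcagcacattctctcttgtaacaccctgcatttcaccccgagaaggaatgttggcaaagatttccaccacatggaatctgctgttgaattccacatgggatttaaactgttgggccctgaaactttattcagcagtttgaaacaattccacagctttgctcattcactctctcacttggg

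The Bgn window was 63.7% G and C, more than 79.1% of the 32851 promoters in the table, whose median was 52.7%. It held the GC box on the minus strand at 3 places, beginning 34, 10 and 6 bases before the start, and the last 2 of these overlap. The Fmod window was 51% G and C and held the SMAD element 148 bases before the start on the plus strand and 195 bases before it on the minus strand. The Ogn window was 42.3% G and C. It held TATAAA 227 bases before the start on the plus strand, and a match on the minus strand at 229 bases overlaps that one. Among all promoters of this length 35.7% held the GC box, 49.6% the SMAD element, 13.6% TATAAA and 7.81% the AP-1 site, which had no match in these 3 windows. These matches describe letters only and show no binding.

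In the GRCm38.p6 gene table several family members are neighbours. Lum lies directly between Dcn and Kera (keratocan), with Epyc (epiphycan) next to Kera. Ogn lies next to Omd (osteomodulin), followed by Aspn (asporin). Fmod lies next to Prelp, followed by Optc (opticin). Bgn lies between Haus7 and Atp2b3, which are not SLRP genes.

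The array columns had been brought to one level before deposit: the mean between percentiles 2 and 98 of the signals lay between 1499.24 and 1499.75 on every array. Median signals were 450.65 to 723.35, and arrays of a group correlated with r of 0.916 to 0.976. Dmd, the mutated gene, averaged lower in mdx than in control arrays at all 6 ages on probe set 93623_at, with a mean log2 difference of -1.01 ± 0.122 (SE, adjusted p = 2.22e-07, limma). Markers of skeletal muscle were bright, and their summed signal was at least 90817.0 in every array at 56 and 112 days. Liver albumin read above 10000 on 9 arrays, which belong to both genotypes but not evenly. They include 0 mdx and 1 control array at 56 days, and 1 mdx and 2 control arrays at 112 days. Differences below are on the scale of log2(signal + 32), given as mdx minus control with the standard error of limma's fit. A probe set is said to have risen or fallen where its Benjamini-Hochberg adjusted p over 9291 tested probe sets was under 0.05.

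Among the SLRPs the calls between genotypes fell at the older ages and went in opposite directions. At 56 days Lum and the brighter Bgn probe set rose in mdx diaphragm and Fmod fell. At 112 days Lum and the brighter probe sets of Bgn and Ogn rose and Fmod fell. The Fmod call at 112 days was close to the threshold (adjusted p = 0.0433, limma). Without the high-albumin arrays the 112-day differences were smaller, at 0.84 for this Bgn probe set and -0.32 for Fmod. Dcn did not pass the test at any age. A dependence of the difference on age passed the test for Lum and, close to the threshold, for Ogn 160877_at, so the ages at which Bgn and Fmod were called do not by themselves show a late onset.

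By limma, 0 of the 7 tested probe sets were called at 7, 14, 23 and 28 days, where 0.463%, 0.194%, 3.49% and 2.96% of all tested probe sets were called. At an unadjusted p under 0.05 there were 1, 0, 0 and 3 of them at these ages, against 10.7%, 6.55%, 14.1% and 12.7% of all. They were Dcn at 7 days, and Lum, Bgn 96049_at and Fmod 99152_at at 28 days. At 56 days 3 of 7 were called, against 16.7% of all probe sets. Of these 2 were higher, against 9.27% of all, and 1 lower, against 7.38% of all. At 112 days 4 of 7 were called, against 12.2% of all. Of these 3 were higher, against 7.65% of all, and 1 lower, against 4.52% of all. The median difference of the 7 probe sets was 0.18 at 56 days and 0.47 at 112 days, beside 0.15 and 0.02 over all tested probe sets. With the difference averaged over the 6 ages 3 of 7 were called, against 17.8% of all.

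**Figure D1:**
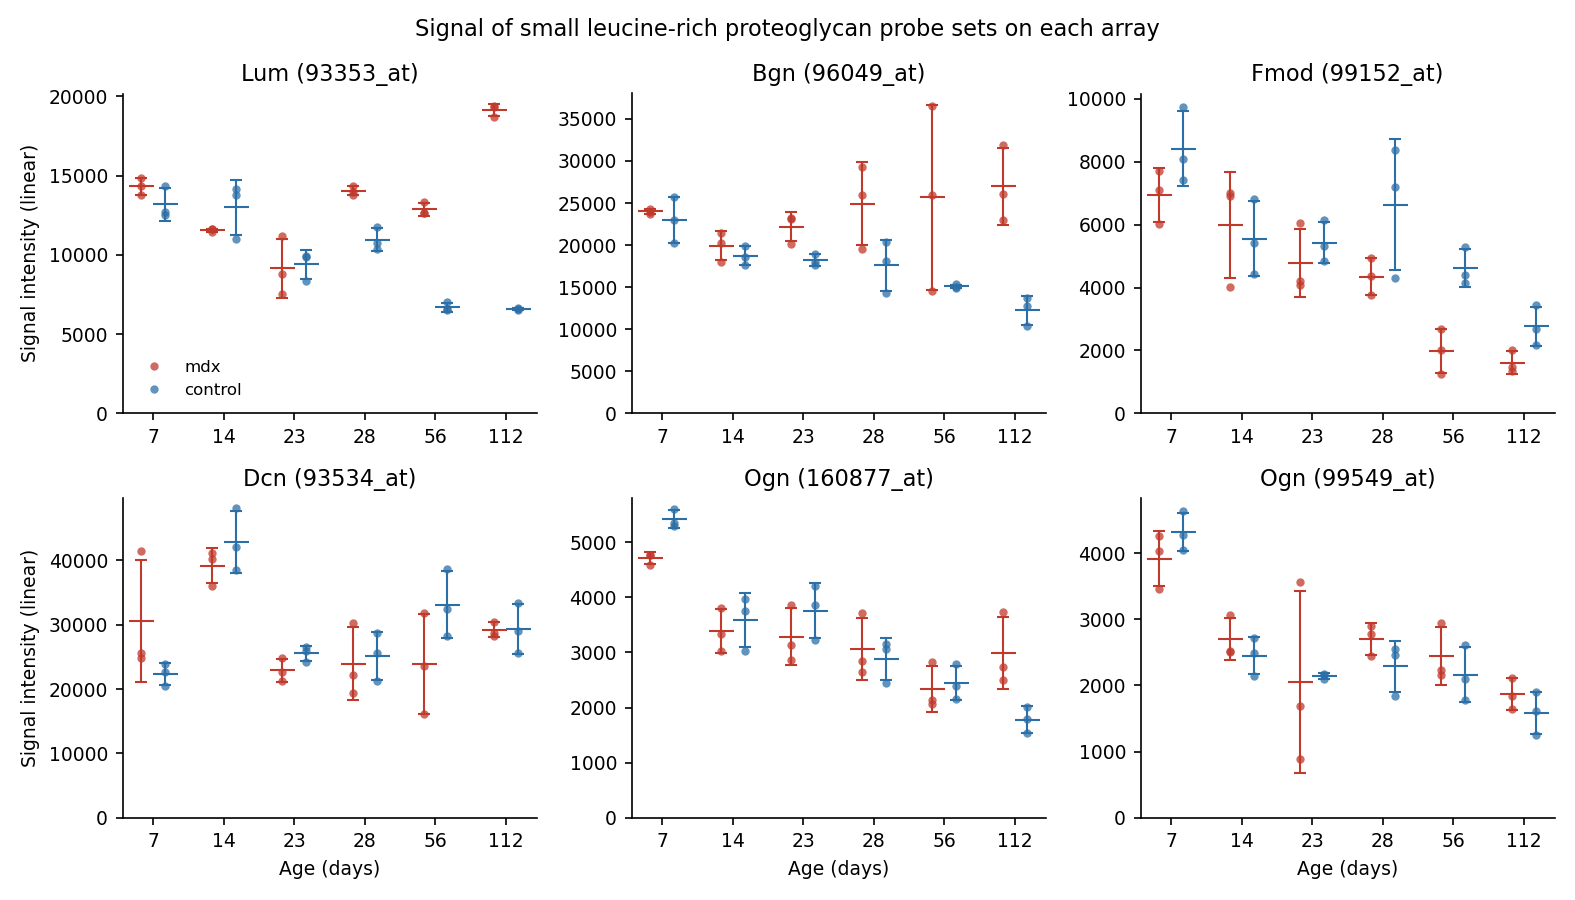
Signal intensity on each array (y axis, linear scale, arbitrary units) of 6 of the SLRP probe sets by age in days (x axis), with mdx left of control at each age. Points are arrays, short lines are the means of 3 and bars are ± 1 SD. Lum in mdx arrays at 112 days averaged 19146 and stands above all other groups, and the means of Fmod are lowest in the mdx groups of 56 and 112 days.

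Lum, which encodes lumican, a collagen-binding proteoglycan best known from the cornea, had the lowest adjusted p among the members. At 112 days probe set 93353_at read 19390.1, 19333.8 and 18715.2 in mdx arrays, against 6560.5, 6509.4 and 6619.7 in control arrays. Every mdx array was far above every control array, and the spread within each genotype was small. The difference was 1.54 ± 0.115 (adjusted p = 2.61e-11), a ratio of means of 2.92.

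At 56 days Lum read 12635.2, 12648.3 and 13361.6 in mdx arrays, against 6488.3, 6992.1 and 6553.7 in control arrays. The genotypes again did not overlap, and the difference was 0.94 (adjusted p = 8.04e-07). At 28 days it read 13772.9, 13983.8 and 14349.3 in mdx arrays, against 10734.1, 10370.4 and 11777.3 in control arrays. These arrays did not overlap either, but the difference of 0.36 missed the threshold (adjusted p = 0.0967).

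At the younger ages the Lum arrays of the genotypes overlapped. At 7 days it read 13754.0, 14856.6 and 14330.8 in mdx arrays, against 12482.5, 12706.3 and 14339.8 in control arrays. At 14 days it read 11446.9, 11604.5 and 11617.5 in mdx arrays, against 13790.9, 14167.7 and 10998.7 in control arrays. At 23 days it read 8811.6, 7499.5 and 11164.6 in mdx arrays, against 9878.7, 9943.4 and 8355.1 in control arrays. The differences at these ages were 0.12, -0.16 and -0.05, each within the spread between arrays.

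The Lum difference depended on age. The F test over the 6 ages gave an adjusted p of 1.75e-08, where 8.93% of all probe sets were called, and the difference at 112 days exceeded that at 28 days by 1.18 ± 0.163 (adjusted p = 8.11e-05, with 0.129% of all called). At 112 days it also exceeded that at 56 days by 0.60, which missed the threshold (adjusted p = 0.0903), where 0 of the 7 and 0.0969% of all probe sets were called. Between 14 and 23 days the change in the genotype difference passed for 0 of 7 by limma and for 0.323% of all. With an unadjusted p under 0.05 it was 0 of 7, against 9.88% of all. In the order of the 12 group means, mdx at 112 days stood highest and did not overlap with the group below it. Control at 56 days (6678) and control at 112 days (6563) stood lowest and overlapped with each other.

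Bgn, which encodes biglycan, was read by a bright and a dimmer probe set. At 112 days 96049_at read 26040.2, 31931.3 and 22985.3 in mdx arrays, against 13685.9, 10343.3 and 12737.1 in control arrays. All mdx arrays were above all control arrays, and the difference was 1.13 ± 0.203 (adjusted p = 0.000215). Without the 9 arrays with high albumin it was 0.84 and not called (adjusted p = 0.159), and that fit holds 2 mdx arrays and 1 control array at this age, the lone control being assumed to vary like the other groups.

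At 56 days the Bgn call was less firm. Probe set 96049_at read 14531.0, 36583.3 and 25919.3 in mdx arrays, against 14986.7, 15341.6 and 14947.3 in control arrays. One mdx array lay below all control arrays and another far above them, so the genotypes overlapped. The difference was 0.67 (adjusted p = 0.0222), and without mdx replicate 2 it was 0.36 (adjusted p = 0.217), while without mdx replicate 1 and after quantile normalization it was 1.03. The call was also lost without mdx replicate 3 (adjusted p = 0.0693), without control replicate 1 (0.0631), which is also the high-albumin array of that age, and without control replicate 2 (0.0569).

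The mdx arrays of 56 days differed in brightness in the same order as in Bgn. The signal at percentile 99 was 14660.8, 25510.0 and 21574.6 in mdx arrays, against 28800.2, 29958.9 and 24241.7 in control arrays. Summed skeletal muscle markers ran from 90817.0 to 253647.0 in mdx arrays, against 191552.0 to 266825.0 in control arrays. The part of brightness and muscle RNA in the 56-day values was not tested.

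At earlier ages Bgn 96049_at averaged higher in mdx arrays without passing the test. After quantile normalization it was called at 28 days, with a difference of 0.64 (adjusted p = 0.0232, limma). With the deposited scaling it was not. At 28 days it read 29258.7, 19515.3 and 25965.8 in mdx arrays, against 14316.3, 20325.3 and 18123.9 in control arrays, a difference of 0.50 (adjusted p = 0.254). At 23 days it read 23154.0, 20153.9 and 23243.7 in mdx arrays, against 18983.7, 17591.0 and 18008.5 in control arrays. The 23-day arrays did not overlap, yet the difference of 0.28 missed the threshold (adjusted p = 0.603). At 7 days it read 24297.0, 23968.4 and 23729.4 in mdx arrays, against 20237.1, 22978.4 and 25729.7 in control arrays, and at 14 days it read 21449.8, 18032.0 and 20254.1 in mdx arrays, against 19890.3, 18607.1 and 17645.3 in control arrays. The arrays overlapped at both ages, with differences of 0.07 and 0.09. Averaged over the ages the difference was 0.46 ± 0.0831 (adjusted p = 0.000138). The F test of a dependence on age missed the threshold (adjusted p = 0.0674), and passed it without mdx replicate 1 (0.00221) or 2 (0.0262) of 56 days and after quantile normalization (0.000906). The difference at 112 days exceeded that at 28 days by 0.64, which was not called (adjusted p = 0.525).

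The other Bgn probe set, 162347_f_at, was not called at any age. At 112 days it read 5042.7, 6954.8 and 5475.3 in mdx arrays, against 3888.1, 4475.1 and 4143.4 in control arrays. These did not overlap, and the difference was 0.47 ± 0.224 (adjusted p = 0.185). At 56 days it read 3080.5, 6800.7 and 5802.4 in mdx arrays, against 3967.3, 2759.8 and 4265.3 in control arrays, a difference of 0.46 with overlap (adjusted p = 0.157). Without mdx replicate 1 the 56-day difference was 0.80 and called (adjusted p = 0.0141), and the mean over the ages was called too (adjusted p = 0.0269). Its other ages all overlapped, and at 23 days it was dimmest, at 1962.6 to 2257.8 in mdx arrays, against 2113.5 to 2743.8 in control arrays. Over the 12 group means the 2 Bgn probe sets correlated with r = 0.12, and within groups over the 36 arrays with r = 0.50, so they shared array-to-array spread more than the course over groups. The Bgn calls between genotypes in the main fit are those of 96049_at alone. Which of the 2 probe sets reads Bgn better was not tested.

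Dcn, which encodes decorin the brightest of the 8 probe sets, showed no called difference. At 112 days 93534_at read 30492.6, 28286.1 and 28779.9 in mdx arrays, against 29074.0, 25667.6 and 33333.0 in control arrays. The mdx arrays lay inside the range of the control arrays, and the 95% interval of the difference ran from -0.41 to 0.41. At 56 days it read 16199.0, 31739.3 and 23582.1 in mdx arrays, against 32496.9, 38595.8 and 28230.8 in control arrays. The mdx arrays averaged lower with overlap, by -0.51 ± 0.200 (adjusted p = 0.0724).

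The 56-day value of Dcn moved with the handling of the arrays. It was -0.75 and called without mdx replicate 2 (adjusted p = 0.0129), called with array weights (adjusted p = 0.0327), and 0.01 after quantile normalization (adjusted p = 0.962). The mdx array with the lowest Dcn at 56 days was also the one with the lowest brightness. Dcn stood at 42.9% to 71.5% of the highest signal of its array, so it lies near the top of the scale on every array. The part of array brightness in these values was not tested.

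At 7 days Dcn read 41515.3, 25573.8 and 24770.0 in mdx arrays, against 23864.7, 20519.2 and 22624.7 in control arrays. All mdx arrays were above all control arrays, with 1 of them standing apart, and the difference of 0.42 missed the threshold (adjusted p = 0.46). At 14 days it read 40218.9, 36074.1 and 41206.2 in mdx arrays, against 48065.2, 38459.2 and 42069.0 in control arrays, the brightest age in both genotypes. At 23 days it read 24804.1, 22595.6 and 21306.8 in mdx arrays, against 26484.2, 24248.5 and 25968.2 in control arrays. At 14, 23 and 28 days the arrays overlapped and the differences were -0.13, -0.16 and -0.09, all of which turned positive after quantile normalization. The mean over the ages was -0.08 ± 0.0817, with a 95% interval from -0.25 to 0.09.

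Fmod, which encodes fibromodulin, a proteoglycan of tendon and other fibrous tissue that binds collagen and guides its cross-linking, went the other way. At 56 days 99152_at read 2676.3, 2001.0 and 1255.3 in mdx arrays, against 4410.3, 4138.0 and 5291.1 in control arrays. Every mdx array was below every control array, and Fmod fell by 1.27 on the log2 scale, with a standard error of 0.251 (adjusted p = 0.000684). This call was kept in each of the alternatives run at this age.

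At 112 days Fmod read 2020.9, 1336.1 and 1478.5 in mdx arrays, against 2168.6, 3431.5 and 2681.6 in control arrays. The arrays did not overlap, with the highest mdx array just below the lowest control array, and the difference was -0.76 (adjusted p = 0.0433). It stood close to the threshold: without control replicate 2 it was -0.59 (adjusted p = 0.200), and without the arrays with high albumin -0.32 (adjusted p = 0.717). It was also lost without control replicate 3 (adjusted p = 0.0737), without mdx replicate 2 (0.167) and without mdx replicate 3 (0.122). Apart from single arrays left out, the call was lost in 7 of 12 settings, which include the fit without the high-albumin arrays.

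At 28 days Fmod read 4932.5, 4352.4 and 3761.0 in mdx arrays, against 4317.7, 7207.2 and 8370.0 in control arrays. The arrays overlapped through 1 low control array, and the difference was -0.56 (adjusted p = 0.327). At 7 days, when it was brightest, it read 7090.6, 7700.7 and 6028.7 in mdx arrays, against 7423.4, 8080.9 and 9746.6 in control arrays. At 7, 14 and 23 days the differences were -0.28, 0.08 and -0.20, all with overlap. The F test of a dependence on age missed the threshold (adjusted p = 0.0851) but passed it without mdx replicate 1 of 56 days (0.0349), mdx replicate 2 of 14 days (0.0366) or control replicate 1 of 28 days (0.0461). The difference at 112 days minus that at 28 days was -0.20 (adjusted p = 0.932). The mean over the ages was -0.50 ± 0.102 (adjusted p = 0.000638). The dim second probe set of Fmod overlapped at all 6 ages. At 56 days it read 23.9, 83.8 and 23.2 in mdx arrays, against 35.8, 45.6 and 133.0 in control arrays, and fitted without the filter it differed by -0.43 ± 0.447 (adjusted p = 0.575).

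Ogn, which encodes osteoglycin, was higher in mdx diaphragm at the oldest age on 1 of its 2 probe sets. At 112 days 160877_at read 3730.8, 2744.3 and 2492.9 in mdx arrays, against 1538.6, 1793.4 and 2014.3 in control arrays. The arrays did not overlap, and the difference was 0.72 ± 0.163 (adjusted p = 0.00247). At 56 days it read 2070.1, 2825.4 and 2139.6 in mdx arrays, against 2390.8, 2781.7 and 2160.8 in control arrays, a difference of -0.07 with overlap.

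At 7 days all mdx arrays of Ogn 160877_at were slightly below all control arrays. They read 4770.1, 4770.5 and 4586.3, against 5348.6, 5296.9 and 5595.8 in control arrays, and the difference of -0.20 was not called. From 14 to 28 days the genotypes overlapped, with signals of 2653.1 to 3854.3 in mdx arrays, against 2452.3 to 4206.6 in control arrays. The F test gave an adjusted p of 0.0404 for a dependence on age, a call lost under several alternatives given in the closing section.

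The second Ogn probe set, 99549_at, read 2120.3, 1841.9 and 1638.0 in mdx arrays at 112 days, against 1610.5, 1252.1 and 1893.8 in control arrays. These overlapped, and the difference was 0.24 ± 0.260 (adjusted p = 0.611). At 23 days it read 886.7, 1686.7 and 3567.0 in mdx arrays, against 2165.0, 2174.2 and 2099.0 in control arrays. The mdx arrays spread widely around tight controls, and without mdx replicate 3 the difference there was -0.79 (adjusted p = 0.0185). Over the 12 group means the 2 Ogn probe sets correlated with r = 0.79, and within groups over the 36 arrays with r = 0.28.

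**Figure D2:**
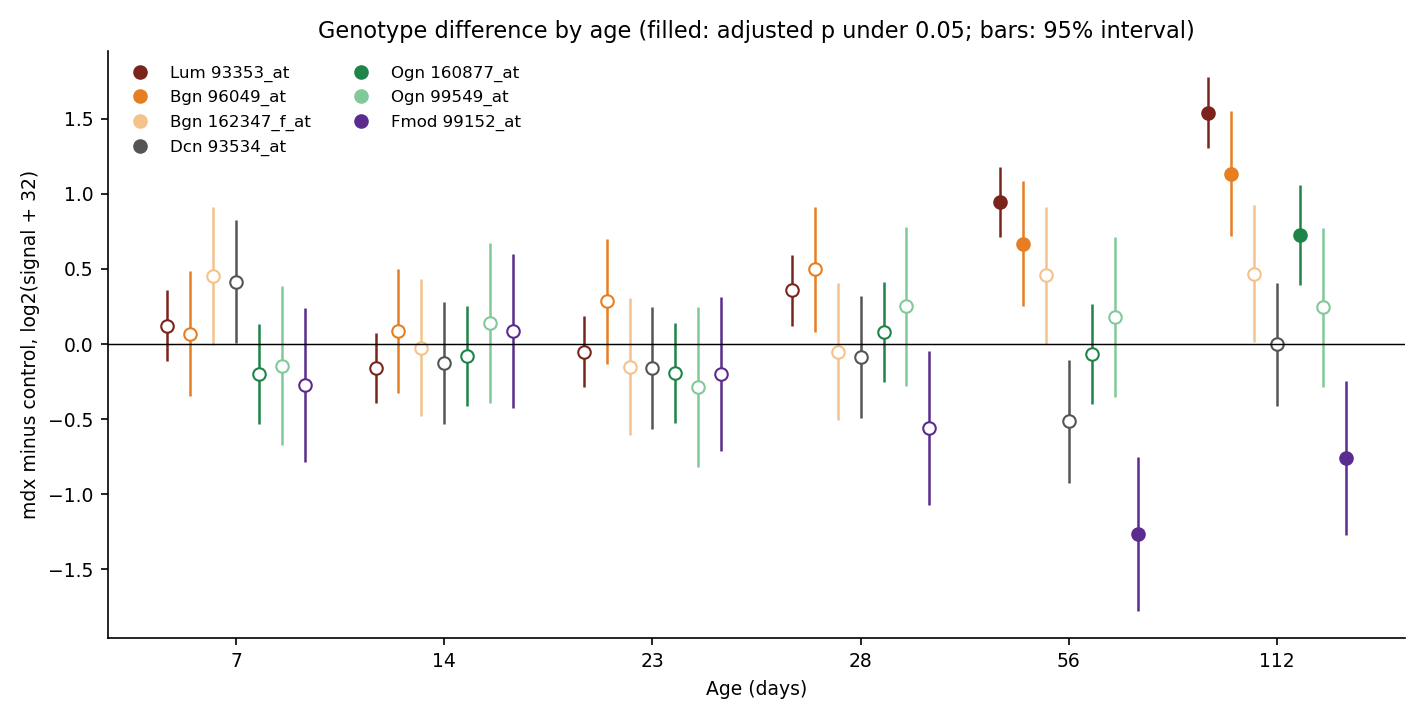
Log2 difference in signal, mdx minus control (y axis), against age in days (x axis) for the 7 tested SLRP probe sets, with 95% confidence intervals from limma; filled points passed the test. Lum reaches 1.54 at 112 days while Fmod lies at -1.27 at 56 days, and Dcn stays near 0 at 112 days.

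Read across the members, no overlap between the 3 mdx and the 3 control arrays was seen at 3 ages for Lum, at 2 ages each for Bgn 96049_at, Fmod and Ogn 160877_at, at 1 age each for Dcn and Bgn 162347_f_at, and at 0 ages for Ogn 99549_at. By age they were Dcn and Ogn 160877_at at 7 days, none at 14 days, Bgn 96049_at at 23 days and Lum at 28 days. At 56 days they were Lum and Fmod. At 112 days they were Lum, both Bgn probe sets, Fmod and Ogn 160877_at. Over all tested probe sets the share without overlap was 15.4%, 12.9%, 22.9%, 21.5%, 36.9% and 23.5% from 7 to 112 days. The share was thus high at 56 days for probe sets in general.

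The members were also set against each other within each array, which removes a shift common to all probe sets of an array. The columns had already been brought to one level, and a shift that depends on the signal level is not removed. The part of such a shift in these gaps was not tested. Each gene was represented by its brightest probe set, and the log2 signals of a pair of genes were subtracted. The dimmer Bgn and Ogn probe sets were not used in the pairs. Mdx was then compared with control by an exact two-sided permutation of arrays within ages, adjusted over the 10 pairs. A difference between 2 probe sets is used here only for its change between genotypes, since their levels cannot be compared.

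Lum minus Fmod showed the widest gap between genotypes. At 112 days it was 3.24, 3.82 and 3.63 in mdx arrays, against 1.58, 0.92 and 1.29 in control arrays. At 56 days it was 2.23, 2.64 and 3.38 in mdx arrays, against 0.55, 0.75 and 0.31 in control arrays. No mdx array overlapped a control array at either age, and the gaps were 2.30 ± 0.258 and 2.21 ± 0.361 (SE). At a single age 3 arrays against 3 cannot give an exact p below 0.1, which both ages reached. Averaged over the 6 ages the gap was 0.96 (exact permutation p = 0.000131, adjusted 0.000327).

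Bgn minus Fmod was 0.95 higher in mdx arrays averaged over the ages (adjusted permutation p = 3.97e-05). Lum moved 0.54 further up than Dcn (adjusted permutation p = 0.00337) and 0.41 further than Ogn (0.000327). The mean gap between Lum and Bgn was 0.00 (permutation p = 0.976), which averages gaps of -0.25, -0.33 and -0.14 at 14, 23 and 28 days and of 0.28 and 0.41 at 56 and 112 days, all with overlap. Dcn minus Ogn averaged -0.12, which missed the threshold (permutation p = 0.262), but it was 0.62 at 7 days and -0.45 and -0.72 at 56 and 112 days, without overlap at these 3 ages. The remaining pairs passed it, with Dcn minus Bgn at -0.53, Dcn minus Fmod at 0.42, Bgn minus Ogn at 0.41 and Fmod minus Ogn at -0.54. In all, 8 of the 10 pairs passed. The 10 pairs are built from only 5 probe sets, so they are not independent of each other. How often pairs of other probe sets would pass was not tested, so this count is not particular to SLRPs.

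**Figure D3:**
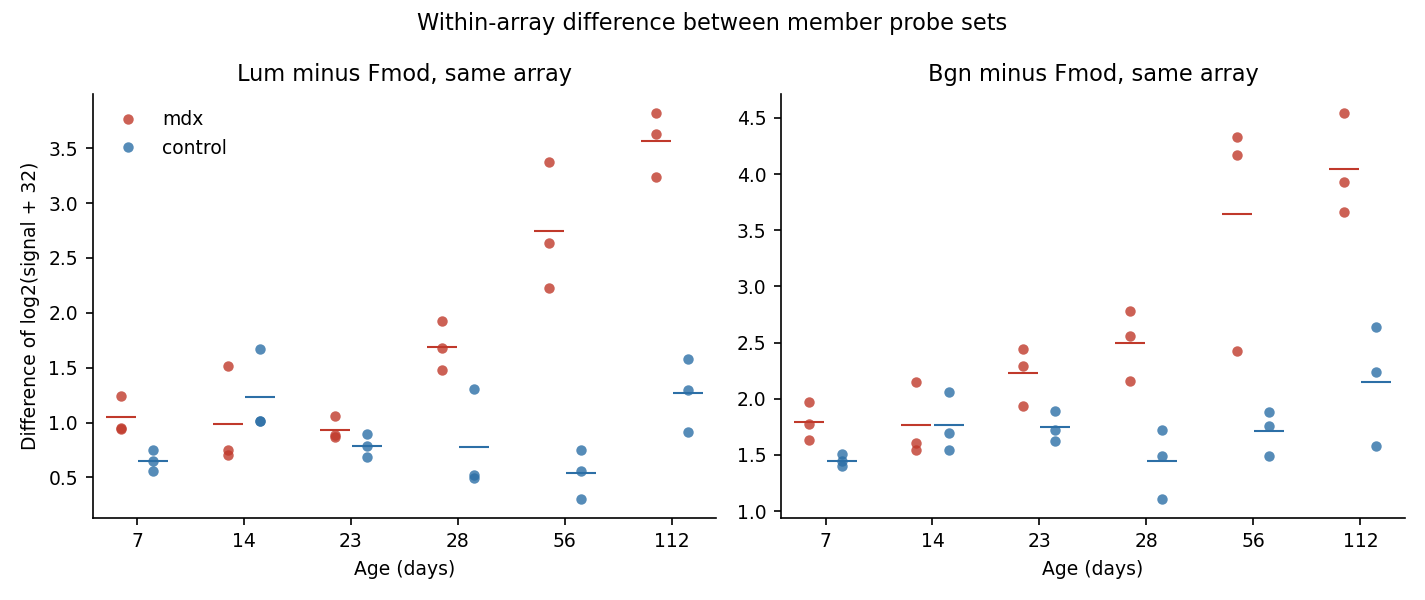
Log2 signal of one SLRP minus another on the same array (y axis) by age in days (x axis), with mdx left of control; points are arrays and lines are the means of 3. Lum minus Fmod lies at 3.24 to 3.82 in mdx arrays of 112 days, against 0.92 to 1.58 in control arrays.

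Most of these probe sets differed between the youngest and the oldest age. The labels do not give the processing of the arrays, so age and a difference in processing between ages cannot be told apart. Between 7 and 112 days 4 of the 7 probe sets changed in mdx diaphragm, where 17.4% of all probe sets changed, and 5 of 7 changed in control diaphragm, where 41.7% of all changed. Lum took different courses: at 112 days it was 0.42 above its 7-day level in mdx mice (adjusted p = 0.00997), and in control mice it had fallen by 1.00 (adjusted p = 5.84e-08). The mdx value lost its call on the arrays of the 2 groups alone (adjusted p = 0.110) or without the high-albumin arrays.

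Fmod fell with age in both genotypes, by 2.10 in mdx (adjusted p = 2.81e-07) and by 1.61 in control (adjusted p = 8.2e-06). Ogn 160877_at fell by 0.67 in mdx (adjusted p = 0.00359, and 0.0650 on the arrays of those groups alone) and by 1.59 in control (adjusted p = 6.04e-09), and Ogn 99549_at fell by 1.06 in mdx and by 1.45 in control. Bgn 96049_at fell by 0.91 in control (adjusted p = 0.000735), while its change of 0.16 in mdx was not called (adjusted p = 0.663). Without the high-albumin arrays the control change was -0.65 and not called (adjusted p = 0.163). Control levels of Lum were thus lower at 112 than at 7 days, and those of Bgn were so with all arrays. Dcn differed between 112 and 7 days by -0.03 in mdx and 0.39 in control, neither called.

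The steps between neighbouring ages are given as values and calls, under the same limit on processing. Lum in mdx rose by 0.63 between 23 and 28 days (adjusted p = 0.00661) and by 0.57 between 56 and 112 days (adjusted p = 0.0116). It was the only member called in these steps, in which 1.19% and 0.517% of all probe sets were called. In control it fell by 0.71 between 28 and 56 days (adjusted p = 0.000332), where 3.85% of all were called. Fmod in mdx fell by 1.18 between 28 and 56 days (adjusted p = 0.00393, with 15.4% of all called). Between 14 and 23 days Lum, Dcn and Bgn 162347_f_at changed in both genotypes, but 41.5% of all probe sets in mdx and 47.3% in control were called in that step. In control between 7 and 14 days Dcn changed by 0.94 (adjusted p = 0.000918) and Bgn 162347_f_at by 0.77 (0.0101). Ogn 160877_at changed by -0.60 (0.00618) and Ogn 99549_at by -0.81 (0.0179) in that control step. With an unadjusted p under 0.05 there were 5 of 7, against 44.2% of all. In mdx the same step called 0 of 7, and 2 of 7 had an unadjusted p under 0.05, against 23.1% of all.

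The rest of the family was thinly covered. Of 12 other SLRP genes 4 were on the array and 2 were tested, Chad (chondroadherin) and Kera (keratocan), while Epyc and Omd were too dim. At 28 days Chad read 1240.2, 1097.9 and 1117.7 in mdx arrays, against 1770.7, 1849.4 and 2347.8 in control arrays. The arrays did not overlap and Chad fell by 0.76 (adjusted p = 0.0309). At 56 and 112 days its differences of -0.10 and -0.46 were not called, and those of Kera, the neighbour of Lum, were -0.65 and 0.09 and not called.

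The companion lists below are read against the share of all probe sets, of which 9.27% rose and 7.38% fell at 56 days and 7.65% rose and 4.52% fell at 112 days. Fibrillar collagens form the fibrils to which SLRPs bind. Of 8 tested genes 1 rose at 28 days, 4 at 56 days and 4 at 112 days, and their median difference was 0.72 at 56 days and 0.96 at 112 days, beside 0.15 and 0.02 over all probe sets. Col5a2, a chain of collagen V that sits inside collagen I fibrils, read 11795.4, 13795.9 and 11188.0 in mdx arrays at 112 days, against 2296.4, 2732.2 and 3613.0 in control arrays. The arrays were far apart, and the difference was 2.10 (adjusted p = 4.51e-12). Col3a1 rose by 0.65 at 56 days and 1.74 at 112 days, and Col1a2 by 1.16 and 1.65.

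Among 12 tested genes of collagen maturation and cross-linking, 4 rose at 56 days and 4 at 112 days, with medians of 0.39 and 0.29. Lox, lysyl oxidase, which starts the cross-links between collagen molecules, read 2324.5, 1790.1 and 1757.3 in mdx arrays at 56 days, against 683.1, 909.3 and 1273.5 in control arrays. The arrays did not overlap and Lox rose by 1.04 (adjusted p = 0.000583), on the same arrays in which Fmod fell. Serpinh1, the collagen chaperone, rose by 0.45 at 56 days and by 0.53 at 112 days. Sparc, a collagen-binding matrix protein, rose by 1.08 at 112 days.

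Of 11 fibril-associated collagens and linkers, 4 rose at 56 days and 4 at 112 days, with medians of 0.56 and 0.47. Col6a3, a chain of the collagen VI microfibrils to which biglycan and decorin bind, rose by 1.45 and 1.48 at these ages (adjusted p = 1.16e-08 and 5.05e-09). Of 17 other proteoglycans 6 rose at 56 days and 3 at 112 days, with medians of 0.45 and -0.04. They include Cd44, the hyaluronan receptor, at 1.71 and 1.48, and Hspg2 (perlecan) at 0.53 and 0.50, while Vcan (versican) rose at 56 days by 0.92 and was not called at 112 days.

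Glycosaminoglycan synthesis, which builds the sugar chains of these proteins, was measured through 11 genes. At 56 and 112 days 1 of them rose and 1 fell, with medians of 0.21 and 0.02, which is close to the share over all probe sets. Chpf, which helps to lengthen chondroitin chains, read 1536.0, 1362.7 and 1392.1 in mdx arrays at 112 days, against 395.2, 527.8 and 377.7 in control arrays, and rose by 1.66 (adjusted p = 0.000199). Ugp2, which makes UDP-glucose, also used for glycogen, fell by 0.85 at that age (adjusted p = 2.54e-05).

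Among 21 tested growth factors and receptors that SLRPs bind or act through, 5 rose and 3 fell at 56 days, and 3 rose and 2 fell at 112 days, with medians of 0.47 and 0.01. Mstn, myostatin, the inhibitor of muscle growth, read 474.1, 558.6 and 692.3 in mdx arrays at 112 days, against 3341.6, 2451.8 and 1728.0 in control arrays. The genotypes were far apart, and Mstn fell by 2.03 (adjusted p = 4.74e-09). Ccn4, a secreted target of Wnt signalling, rose by 2.35 at 56 days and 1.60 at 112 days.

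Tgfb1, named after its values were seen, read 1144.2, 213.6 and 454.0 in mdx arrays at 56 days, against 155.7, 72.8 and 70.4 in control arrays. It rose by 2.04 at 56 days (adjusted p = 0.00101) and by 1.48 at 112 days (adjusted p = 0.0165), from low signals with a wide spread. Of 8 tested proteases that can cut SLRPs or other matrix proteins, 4 rose at 56 days and 3 at 112 days, with medians of 1.17 and 0.82. Mmp12, the macrophage elastase, read 4099.2, 4856.6 and 4154.9 in mdx arrays at 112 days, against 385.1, 310.7 and 281.6 in control arrays, and rose by 3.63 (adjusted p = 7.59e-07). Ctsk, cathepsin K, rose by 1.34 at 56 days and by 1.42 at 112 days.

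Markers of other cells moved as well. Summed fibroblast markers were 63477.7 to 79855.3 in mdx arrays at 112 days, against 29863.5 to 36997.4 in control arrays, and 5 of 10 rose. The bright collagen genes Col1a1 and Col1a2 make up much of this sum and are fibrillar collagens too, while Thy1 was lower by values of -0.79 at 56 days and -0.70 at 112 days that were not called, and fell in the mean over the ages (adjusted p = 0.0212). Summed macrophage markers were 75300.2 to 82297.2 in mdx arrays at that age, against 19189.2 to 22111.6 in control arrays, and 9 of 10 rose. Fibroblast and macrophage sums did not overlap at 56 days either, at 60304.4 to 83716.2 and 62092.0 to 77137.4 in mdx arrays, against 45715.3 to 50990.5 and 22476.5 to 26950.9 in control arrays. The part of these cells in the Lum, Bgn and Ogn values was not tested.

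Some markers of other lists fell, as Fmod did. Summed mesothelium markers, the cells that cover the diaphragm, were 3914.3 to 4853.8 in mdx arrays at 56 days, against 7567.9 to 8247.6 in control arrays, and 3 of 7 fell. Adipocyte sums were 6387.8 to 8846.9 in mdx arrays, against 11984.5 to 15986.2 in control arrays, and 2 of 5 fell. Of 7 endothelial markers 3 fell at 56 days and 4 at 112 days, when their sums were 9899.2 to 11309.4 in mdx arrays, against 12501.0 to 14559.0 in control arrays. Of 2 tested bone markers 1 fell, Alpl, with differences of -2.09 at 56 days and -1.36 at 112 days. The other, Ibsp, went the other way without being called, and the median of both was -0.84 and -0.54. Cartilage sums overlapped at 56 and 112 days. Of its 10 genes on the array 8 passed the filter, with Col9a1 up to 3405.7 and Acan up to 642.8, and Matn1 and Matn3 were dim. Of the tendon list, apart from Fmod, Scx alone was on the array. It rose at 56 days (adjusted p = 0.0138), with 3699.9 to 7985.0 in mdx arrays, against 1113.7 to 4376.7 in control arrays, which overlap. At 112 days it differed by -0.31 and was not called. The part of these cells in the Fmod values was not tested.

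Genes with a like course were ranked by Pearson's r with each member over the 12 group means, as a description only, since these means share age steps and array processing. Bgn was most like Npnt (0.98), Tmsb10 (0.96) and Anxa5 (0.95), and Lum most like Anxa5 (0.91), Bik (0.91) and Drg1 (0.90). C1qtnf3 stood among the top 5 of both Lum and Bgn, and Lum and Bgn 96049_at correlated with r = 0.87, but within groups over the 36 arrays with r = 0.18. Dcn was most like the muscle and mitochondrial genes Myh1 (0.98), Atp5a1 (0.98) and Acaa2 (0.97). Fmod was most like Deaf1 (0.96), Elovl5 (0.96) and Slc25a36 (0.95), with the matrix gene Fbln2 (0.94) in its top 5. Ogn was most like Hcfc1r1 (0.95), Cldn5 (0.94) and Tpm1 (0.94).

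Within groups, over the 36 arrays with the group means taken out, the order changed. Dcn then varied most like Mdh2 (0.88), Rpl19 (0.88) and Eef1a1 (0.87), all bright genes of metabolism or protein synthesis. Bgn varied most like Ly6e (0.80), Pkm (0.79) and Plk3 (0.77), and Lum most like Stag1 (0.74), Rnf2 (0.74) and F2r (0.68). Fmod had the weakest companions, with Cpxm2 at 0.64, and Ogn had Tcf7l1 at 0.68.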

How the data were processed

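The authors deposited 1 intensity per probe set and array on a linear scale; the sources used here do not name the software, and all 36 columns were matched to a sample. Of 12488 probe sets 66 are the array maker's controls. Genes were named from GEO's platform annotation (10833 probe sets with 1 symbol, 396 with several and 1193 with none). The deposited values were used without further scaling, as log2(value + 32), which understates changes of dim genes. A probe set was tested if 3 or more arrays exceeded percentile 40 of all values (374.5). The model had 12 group means and was fitted to the 36 arrays with limma 3.58.1 (R 4.3.3), with eBayes following a trend on signal and 24 residual degrees of freedom. Every p-value without another name is from this fit, Benjamini-Hochberg adjusted within a comparison. All member probe sets are reported. Of each companion list, up to 4 called genes with the lowest adjusted p in the mean over ages were eligible to be named, using a gene's brightest probe set. Likeness was ranked by Pearson's r. Permutations used scipy 1.17.1. The steps were tested on simulated data. The members and lists were chosen with earlier results of these data known. For arrays, precision is limited by their number, and no detection calls were used. Alternatives were other pseudocounts (8 and 100), no filter or percentile 60, quantile normalization, array weights, the replicate block, no trend, the compared arrays alone, each array left out, the Gapdh 3' to 5' ratio as a covariate, and leaving out arrays with albumin above 10000. Leaving out the 14-day and 23-day arrays was added after seeing the data.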

Additional observations from a re-analysis of the deposited data

Results flagged for a closer look

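The genotype difference of Lum varied with age, with an adjusted p of 1.75e-08 in limma's F test over the 6 ages, and was 1.18 larger on the log2 scale at 112 than at 28 days. The genotype difference of Ogn 160877_at varied with age with an adjusted p of 0.0404, and the second Ogn probe set did not pass this test. The Ogn call was lost in 5 of 10 other settings and in 17 of 36 fits that left out 1 array, with adjusted p up to 0.160, and the Lum call in 0 of them.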

How the results depend on the processing

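Of 1257 values of single probe sets under the alternatives, belonging to 59 results, 1186 kept their direction and their side of the threshold, 24 lost their call, 8 gained one and 39 changed sign. The Lum calls at 56 and 112 days and the Fmod call at 56 days were kept in every alternative run. The sign changes concern differences that were not called. After quantile normalization Bgn 96049_at was -0.15 at 7 days, and Dcn was 0.045, 0.034, 0.064, 0.011 and 0.10 from 14 to 112 days and 0.074 in the mean over ages. With the Gapdh ratio as a covariate, Dcn was -0.082, Bgn 96049_at -0.043 and Ogn 99549_at 0.15 at 7 days, and Dcn 0.050 at 112 days. With array weights Dcn was 0.018 at 112 days and Ogn 160877_at -0.0095 in the mean. Without the high-albumin arrays Bgn 96049_at was -0.016, Fmod -0.35 and Ogn 99549_at -0.11 at 14 days, and Dcn 0.027 at 112 days.

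Leaving out each array in turn, the sign also varied among differences that were not called. The ranges were -0.019 to 0.15 for Bgn 96049_at at 7 days. At 14 days they were -0.11 to 0.036 for Bgn 162347_f_at, -0.066 to 0.35 for Fmod and -0.19 to 0.0018 for Ogn 160877_at. At 23 days they were -0.79 to 0.19 for Ogn 99549_at and -0.20 to 0.083 for Lum. At 28 days they were -0.064 to 0.18 for Ogn 160877_at, -0.27 to 0.055 for Dcn and -0.23 to 0.071 for Bgn 162347_f_at. They were -0.21 to 0.030 for Ogn 160877_at at 56 days, -0.094 to 0.095 for Dcn at 112 days and -0.021 to 0.14 for Ogn 99549_at in the mean. The number of called SLRP probe sets ran from 0 to 1 at 23 days (1 without mdx replicate 3) and from 0 to 1 for 112 minus 56 days (1 without control replicate 3 of 112 days). For the F test it ran from 1 to 4 and moved in 17 of the 36 cases, to 4 without mdx replicate 1 of 56 days and otherwise to 1, where Ogn 160877_at lost its call.

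The number of called SLRP probe sets was 1 at 23 days with array weights, 1 at 28 days after quantile normalization (Bgn 96049_at), and 5 at 56 days with array weights. At 112 days it was 2 without the high-albumin arrays and 2 on the compared arrays alone, where fewer arrays enter. For ageing in mdx it was 2 on the compared arrays alone. For the F test it was 4 with array weights and 1 with no filter, with the replicate block, without the high-albumin arrays and without the trend. Replicate numbers did not pair the arrays: of 18 pairs 1 correlated above 0.1, with r from -0.23 to 0.15. With the replicate block Fmod at 112 days had an adjusted p of 0.0514, and no other SLRP call at a single age was lost. Ogn 160877_at at 112 days lost its call on its own 6 arrays (adjusted p = 0.0908), as did Fmod at 112 days (0.116) and Bgn 96049_at at 56 days (0.182). Fmod at 112 days was also lost with no filter (0.0531), array weights (0.0816), no trend (0.0623) and without the 14-day and 23-day arrays (0.0527), and Bgn 96049_at at 56 days without those arrays (0.0640) and without the high-albumin arrays (0.0912). Apart from these values, the cause of a change was not tested.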
